A study of Rattus norvegicus with 10 samples.

Results

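The genes described here are 3 ubiquitin ligase genes, Rnf8, Rnf125 and Lnx2, and 1 deubiquitinase gene, Usp2, in rat liver. They were chosen by name, because earlier work on these same values had found them to differ between the diets of the study. The platform's gene table assigns 5 probe sets to these 4 genes alone, 2 of them to Usp2 and 1 to each ligase gene, out of 14217 named genes on the array. The livers came from 10 male rats aged 13 weeks, 5 for each diet, with 1 array for each liver. The seasoned group (animals 1, 4, 7, 10 and 13) was fed for 30 days on chow of which instant noodle made up 30 wt% and fat gave 26% of the energy, while the control group (animals 2, 5, 8, 11 and 14) was fed the same chow with the seasonings left out. Feeding was paired at about 60 g of diet per kg body weight and day under 12 h of light and 12 h of dark. The strain, and the hour at which the livers were taken, are not stated in the labels.

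Ubiquitin is a small protein that is attached to other proteins through a cascade of activating (E1), conjugating (E2) and ligase (E3) enzymes, and deubiquitinases take it off again. The ligase chooses the protein to be marked, and the kind of ubiquitin chain decides whether that protein is degraded or used as a signalling platform. Rnf8, Rnf125 and Lnx2 are ligases of the RING type, which bring the E2 and the target together. Usp2 is a cysteine protease of the ubiquitin-specific protease family, and its transcript follows a daily rhythm in rodent liver.

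The values are the deposited log2 signals, which run from 4.79 to 14.34, with array medians between 6.47 and 6.48. Neither the file nor the labels say how they were summarised and normalised. Of the probe sets, 86.2% had a standard deviation (SD) within the diets under 0.001 log2 units, and 2613 of the 14217 genes had an SD over the 10 arrays above 0.01. Those 2613 are called varying genes and the others near-constant, and all 4 genes are varying. A difference on this scale may therefore not equal the log2 ratio of the transcripts. The hepatocyte markers stood near the top of the scale, with Alb at 14.34 and Ttr at 13.77 in both diets. Since the extraction text in the labels speaks of brain, brain markers were looked at too: 7 were measured, Snap25 stood at 5.97 and Gfap at 6.47 in both diets, and 5 of the 7 lay under the array medians in both. Mbp, the only varying brain marker, lay above the medians, at 7.38 in seasoned and 7.15 in control livers. Macrophage markers averaged between 7.97 and 8.53 in seasoned livers and between 8.11 and 8.35 in control livers. In whole liver, fewer cells of a type and less RNA per cell cannot be told apart. All seasoned arrays carry the letter A and all control arrays the letter B in their sample codes, so this letter and diet cannot be told apart.

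The promoters of the 4 genes are shown because Usp2 is rhythmic and the ligase genes had differences of one sign. The windows hold 250 bases before to 50 after the start of each gene, from RefSeq on the GRCr8 assembly, which is not known to be a build the submitters used. They were searched on both strands for the E-box CACGTG, its variant CACGTT, the D-box TTATGTAA and its variant TTACGTAA, the cyclic AMP element TGACGTCA, the core AGGTCA bound by ROR and REV-ERB factors, the CCAAT box, the GC box GGGCGG and the TATA box TATAAA. Capitals mark the matches, which nowhere overlap one another.
Usp2, chr8:53310620-53310919, plus strand: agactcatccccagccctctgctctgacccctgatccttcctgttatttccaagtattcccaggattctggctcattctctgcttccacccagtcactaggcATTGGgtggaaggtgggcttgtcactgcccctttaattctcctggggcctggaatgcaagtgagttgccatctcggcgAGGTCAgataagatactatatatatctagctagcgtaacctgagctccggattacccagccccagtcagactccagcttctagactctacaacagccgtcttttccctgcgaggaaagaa
Rnf8, chr20:7683715-7684014, plus strand: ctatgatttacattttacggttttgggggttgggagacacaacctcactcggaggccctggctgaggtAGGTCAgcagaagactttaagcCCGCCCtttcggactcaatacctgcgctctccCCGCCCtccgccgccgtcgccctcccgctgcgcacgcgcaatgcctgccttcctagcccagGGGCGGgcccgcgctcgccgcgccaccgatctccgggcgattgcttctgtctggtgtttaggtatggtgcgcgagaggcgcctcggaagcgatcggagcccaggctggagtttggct
Lnx2, chr12:13118889-13119188, plus strand: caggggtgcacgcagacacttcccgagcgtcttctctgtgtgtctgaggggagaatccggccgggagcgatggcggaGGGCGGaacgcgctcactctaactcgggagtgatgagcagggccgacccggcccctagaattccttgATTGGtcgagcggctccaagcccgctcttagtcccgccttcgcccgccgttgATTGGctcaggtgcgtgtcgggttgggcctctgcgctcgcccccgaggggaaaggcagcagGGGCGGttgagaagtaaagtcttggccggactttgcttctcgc
Rnf125, chr18:12528745-12529044, plus strand: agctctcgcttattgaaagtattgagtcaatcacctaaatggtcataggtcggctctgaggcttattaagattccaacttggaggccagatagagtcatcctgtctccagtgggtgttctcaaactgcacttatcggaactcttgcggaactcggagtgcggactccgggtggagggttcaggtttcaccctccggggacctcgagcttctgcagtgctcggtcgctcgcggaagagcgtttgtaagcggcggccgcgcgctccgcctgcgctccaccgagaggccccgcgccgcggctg

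The Usp2 window held 1 AGGTCA, whose first base lay at -70 from the start, and 1 CCAAT box on the other strand at -148. The Rnf8 window held 1 AGGTCA at -182 and 3 GC boxes at -160, -128 and -67. The Lnx2 window held 2 CCAAT boxes on the other strand, at -106 and -54, and 2 GC boxes at -173 and 8. The Rnf125 window held 0 of these motifs, and no window held an E-box, a D-box, a cyclic AMP element or a TATA box in the spellings searched. Among 33469 rat promoters of the same length, AGGTCA was present in 16.2%, the CCAAT box in 37.5% and the GC box in 33.1%. The 3 ligase windows held more CpG than the Usp2 window, with 29 CpG in Rnf8, 28 in Lnx2 and 26 in Rnf125, against 6 in Usp2 and a median of 7 over all promoters. Their GC content was 64.0% in Rnf8, 64.7% in Lnx2 and 58.7% in Rnf125, while Usp2, at 51.7%, lay at the median of all promoters. Usp2 is known to be transcribed from more than one start, and only the start in the table was searched.

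Rnf8 carries a phosphopeptide-binding FHA domain beside its RING and ubiquitylates chromatin around DNA double-strand breaks. In seasoned livers it had log2 signals of 8.19, 8.04, 8.22, 7.93 and 7.93 in animals 1, 4, 7, 10 and 13, against 7.70, 7.64, 7.62, 7.63 and 7.61 in control animals 2, 5, 8, 11 and 14. Every seasoned liver lay above every control liver, and the gap between the lowest seasoned and the highest control liver was 0.22. The group means were 8.06 ± 0.14 and 7.64 ± 0.04 (SD, 5 livers each), and the difference was 0.42 ± 0.06 (SE), or 1.34-fold on the deposited scale. The control livers lay close together, within 0.09 of one another, while the seasoned livers spread over 0.29.

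Lnx2 has a RING and 4 PDZ domains and binds Numb, an inhibitor of Notch signalling that its relative Lnx1 ubiquitylates in mouse. Its signals in seasoned livers were 8.31, 8.25, 8.31, 7.86 and 8.18 in animals 1, 4, 7, 10 and 13, against 7.64, 7.73, 7.27, 7.58 and 7.58 in control animals 2, 5, 8, 11 and 14. The groups again did not overlap, although seasoned animal 10 lay only 0.13 above the highest control. The means were 8.18 ± 0.19 in seasoned and 7.56 ± 0.17 in control livers (SD, 5 livers each), a difference of 0.62 ± 0.11 (SE) or 1.54-fold. Both groups had 1 low liver, animal 10 among the seasoned and animal 8 among the controls.

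Rnf125, known in human cells as a ligase for the viral RNA sensor RIG-I and for its adaptor Mavs, was first described in T cells. It had signals of 10.57, 10.64, 10.56, 9.66 and 9.40 in seasoned animals 1, 4, 7, 10 and 13, against 9.79, 9.33, 8.44, 8.96 and 8.61 in control animals 2, 5, 8, 11 and 14. The groups overlapped: seasoned animals 1, 4 and 7 lay above every control, while animals 10 and 13 lay below control animal 2. The means were 10.17 ± 0.59 in seasoned and 9.03 ± 0.55 in control livers (SD, 5 livers each), a difference of 1.14 ± 0.35 (SE) or 2.21-fold. Among the 4 genes it had the widest spread within a diet in seasoned livers. Of T cell markers, all 11 measured were near-constant, 9 of them lay under the array medians in both diets, and their mean was 6.26 in the lowest and highest liver of each diet. Cd3e, a subunit of the T cell receptor complex, stood at 6.39 in both diets, and Cd8a at 6.43. Most genes were near-constant in these values, Alb and Ttr among them, so the constancy of these markers cannot show whether T cell content differed.

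Usp2 removes ubiquitin from Mdm2, cyclin D1 and clock proteins, among other described targets. Its brighter probe set read 6.29, 6.24, 6.03, 6.44 and 6.86 in seasoned animals 1, 4, 7, 10 and 13, against 7.62, 7.81, 7.67, 6.18 and 7.45 in control animals 2, 5, 8, 11 and 14. The other probe set read 6.27, 6.13, 6.17, 6.54 and 6.75 in the seasoned livers, against 7.36, 7.81, 7.24, 6.49 and 7.23 in the controls, in the same order of animals. Both probe sets placed control animal 11 within the range of the seasoned livers and the other 4 controls above all seasoned livers. The differences were -0.97 ± 0.32 (SE by limma) for the brighter and -0.85 ± 0.24 (SE from the pooled SD) for the other probe set. With control animal 11 left out they were -1.26 and -1.04. The probe sets were never more than 0.44 apart in a liver, a gap reached in control animal 8. No fold is given, because the seasoned means of both, 6.37, lay under the array medians, where a signal may not follow the transcript.

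**Figure D1:**
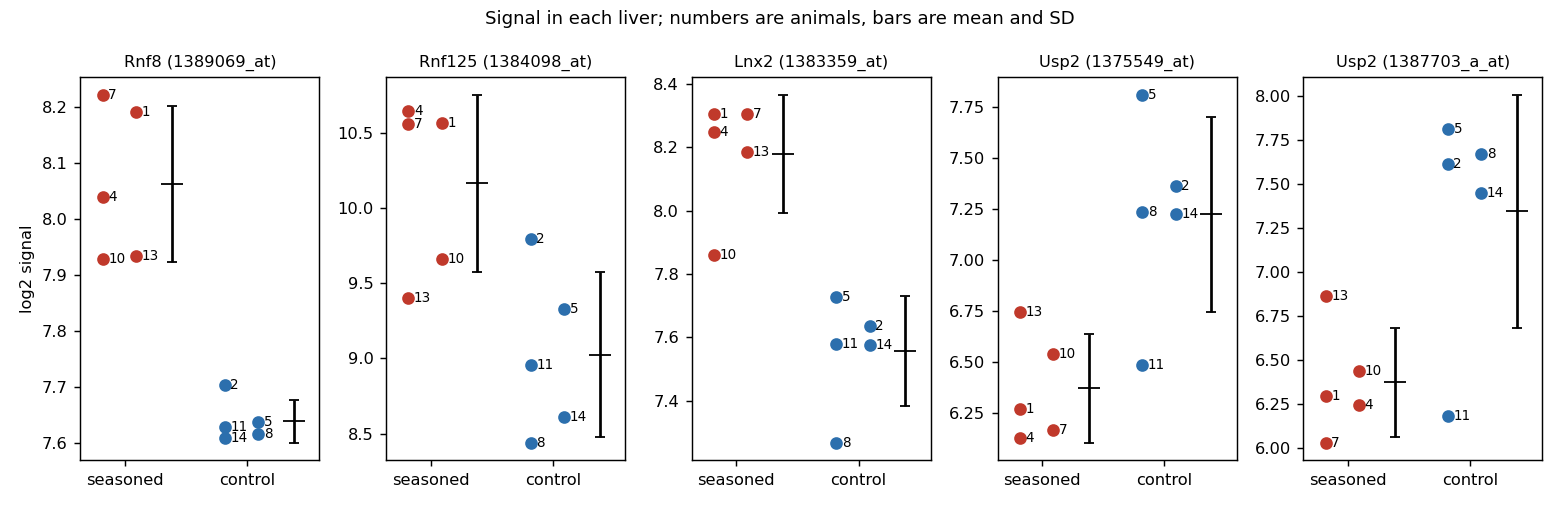
Log2 signal of the 5 probe sets in each liver, with seasoned livers at the left (red) and control livers at the right (blue) of each panel; numbers are animals, and the bar beside each group is the mean with its SD. Rnf8 and Lnx2 do not overlap between the diets, Rnf125 overlaps through animals 10, 13 and 2, and control animal 11 stands with the seasoned livers for Usp2 alone.

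Control animal 11 parts Usp2 from the ligase genes. Its Usp2 signal of 6.18 lay within the seasoned range of 6.03 to 6.86, and outside the 7.45 to 7.81 of the other controls. Its Rnf8 signal of 7.63, its Lnx2 signal of 7.58 and its Rnf125 signal of 8.96 all lay within the range of the other controls (7.61 to 7.70, 7.27 to 7.73 and 8.44 to 9.79). Bmal1, an activator of the clock, was 6.90 in this liver, against 6.08 to 6.24 in the other controls, and Dbp, a rhythmic output factor, was 7.28 against 9.08 to 9.43. Nr1d1, a clock gene, was 7.40 against 7.97 to 8.43 in the other controls, while Cry1, also a clock gene, was 7.05, within their 6.86 to 7.13. The Bmal1 signals of the other controls lay under the array medians. Clock, another clock gene, was 8.39 against 8.04 to 8.26. In this 1 animal Usp2, Bmal1, Dbp, Nr1d1 and Clock were shifted from the other controls toward the seasoned livers, and Cry1 and the ligase genes were not. Of the shifted genes, Usp2 and Nr1d1 lay within the seasoned range (6.54 to 7.76 for Nr1d1). The others lay between the diets, with seasoned ranges of 6.92 to 7.74 for Bmal1, 5.94 to 7.05 for Dbp and 8.43 to 8.64 for Clock. Cry1 also lay within its seasoned range of 6.93 to 7.86.

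The diet contrast chose these 4 genes, so their differences carry no test here. For scale, the diets did not overlap in the higher direction in 0.549% of all genes and in 1.61% of the varying genes, Rnf8 and Lnx2 among them. In the lower direction these shares were 0.331% and 1.11%, and Usp2 was not among them. Over all 14217 genes limma called 0 at an adjusted p under 0.05 (0.0%), with 669 (4.71%) at an unadjusted p under 0.05, while Welch's statistic also called 0, with 562 unadjusted. A fit of the varying genes alone called 4 (0.153%), none of the 4 genes among them. This count ranged from 0 to 52 with 1 liver left out: it was 52 without control animal 11, with Rnf8, Lnx2 and Usp2 among them, 16 without seasoned animal 10, with Rnf8 and Lnx2 among them, 8 without control animal 2, 6 without seasoned animal 13, with Rnf8 among them, 2 without control animal 8, and 0 without any 1 of the other 5 livers. The same fit with a term for animals 8 to 14 against animals 1 to 7 called 12 (0.459%), Rnf8, Rnf125 and Lnx2 among them, but not Usp2. The genes were chosen by the diet contrast in these same values, so these calls are description and no test of them.

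The ligase signals also differed along the animal numbers, which rise with the position of the arrays in each group. Rnf125 was lower in animals 8 to 14 than in animals 1 to 7 in both diets. It averaged 9.53 in seasoned animals 10 and 13 against 10.59 in seasoned animals 1, 4 and 7, and 8.67 in control animals 8, 11 and 14 against 9.56 in control animals 2 and 5. The corresponding differences were -1.06 and -0.89 for Rnf125, -0.22 and -0.05 for Rnf8, and -0.26 and -0.21 for Lnx2. Usp2 differed by 0.46 in seasoned and -0.61 in control livers. This parting of the animals was found in these data and is no batch of the labels, and 76.7% of the other varying genes were likewise lower in animals 8 to 14, so many genes share it.

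Within each set of animals the direction of the diet difference was the same for all 4 genes. For Rnf8 and Lnx2, whose diets did not overlap, no split of the animals could have given another direction. The difference within animals 8 to 14 was 0.31 for Rnf8, 0.55 for Lnx2, 0.86 for Rnf125 and -0.45 for Usp2. Within animals 1 to 7 it was 0.48 for Rnf8, 0.60 for Lnx2, 1.03 for Rnf125 and -1.53 for Usp2. With the set as a term in the fit, Rnf125 differed by 0.95 ± 0.13 (SE), Lnx2 by 0.58 ± 0.08, Rnf8 by 0.40 ± 0.05 and Usp2 by -0.99 ± 0.35. The SE of Rnf125 was 0.35 without the term. Whether the Usp2 difference itself differed between the sets was not tested, and its value within animals 8 to 14 includes control animal 11.

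**Figure D2:**
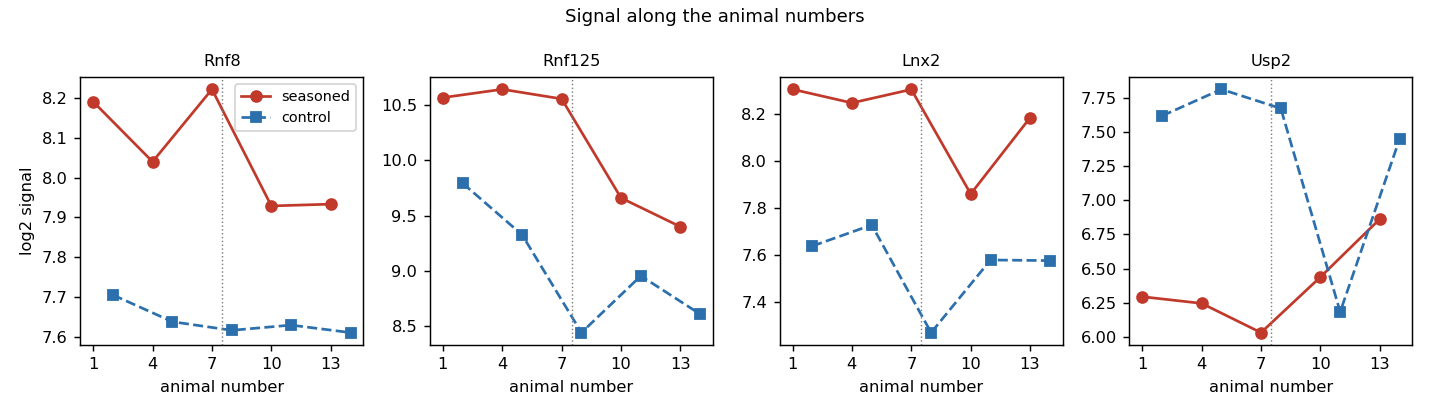
Log2 signal (vertical axis) against animal number (horizontal axis) for the 4 genes, seasoned livers as red circles and control livers as blue squares; the dotted line parts animals 1 to 7 from animals 8 to 14. The seasoned line lies above the control line throughout for the 3 ligase genes, and the Usp2 lines cross around control animal 11.

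The relation of the ligase genes to Usp2 was asked within the diets, since a correlation over all livers would hold the diet difference that chose the genes. Each value was centred on its diet mean, and p-values came from exact two-sided permutation within the diets, adjusted over 14 relations (6 pairs of the genes, and each gene with Dbp and with animal number). Over the 10 livers Pearson's r with Usp2 was -0.27 for Rnf8 (exact permutation p = 0.280, adjusted p = 0.404), -0.19 for Rnf125 (p = 0.656, adjusted p = 0.711) and -0.13 for Lnx2 (p = 0.660, adjusted p = 0.711). Spearman's rho was -0.38 for Rnf8 (exact permutation p = 0.322), -0.43 for Rnf125 (p = 0.223) and -0.16 for Lnx2 (p = 0.670). Without the 2 livers farthest from the median of centred Usp2, control animal 11 and seasoned animal 7, r was -0.50 for Rnf8 (exact permutation p = 0.405), -0.43 for Rnf125 (p = 0.365) and -0.04 for Lnx2 (p = 0.927). With the arrays centred on the median of their varying probe sets, all 10 livers gave an r of -0.70 for Rnf8 (exact permutation p = 0.0311, adjusted p = 0.145), -0.36 for Rnf125 and -0.42 for Lnx2. No relation of a ligase gene to Usp2 passed the adjustment in these 10 livers. Usp2 lay under the array medians in seasoned animals 1, 4, 7 and 10 and in control animal 11, where a signal may not follow the transcript.

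Control animal 11 had the lowest Usp2 signal relative to its diet mean. Without it alone r was -0.68 for Rnf8 (exact permutation p = 0.117, adjusted p = 0.181), -0.50 for Rnf125 (p = 0.203, adjusted p = 0.259) and -0.19 for Lnx2 (p = 0.620). Centred on both diet and animal set, with all 10 livers, r was -0.79 for Rnf125 (exact permutation p = 0.0278 over 144 arrangements, adjusted p = 0.340), -0.19 for Rnf8 and -0.25 for Lnx2. Within the 5 seasoned livers r with Usp2 was -0.78 for Rnf8, -0.87 for Rnf125 and -0.35 for Lnx2. Within the 5 control livers, control animal 11 among them, it was 0.18, 0.14 and -0.03. These values in single diets were not tested.

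**Figure D3:**
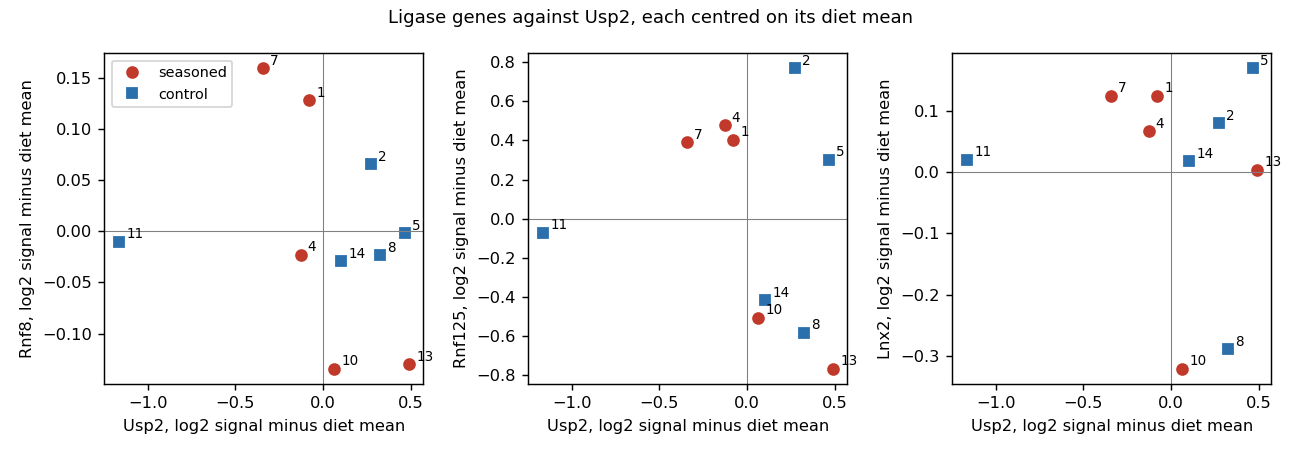
Ligase signal (vertical axis) against Usp2 signal (horizontal axis) in 10 livers, each minus its diet mean in log2 units, seasoned livers as red circles and control livers as blue squares with animal numbers. Control animal 11 lies far to the left at ligase values near its diet mean, and the points of both diets show no common line, with r over all 10 livers at -0.27, -0.19 and -0.13.

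Among themselves the ligase genes had positive correlations within the diets. Pearson's r over the 10 livers was 0.75 between Rnf8 and Rnf125 (exact permutation p = 0.0262), 0.69 between Rnf125 and Lnx2 (p = 0.0283) and 0.60 between Rnf8 and Lnx2 (p = 0.0329), each with an adjusted p of 0.0922, so that none passed. Spearman's rho was 0.75 (exact permutation p = 0.0385), 0.73 (p = 0.0340) and 0.87 (p = 0.0051) for the same pairs, with adjusted p of 0.0899, 0.0899 and 0.0719. Without the 2 livers farthest from the centred median of the second gene of a pair, r was 0.69 (exact permutation p = 0.0295), 0.69 (p = 0.0972) and 0.66 (p = 0.0382). Centred on diet and animal set as well, r was 0.13 (exact permutation p = 0.757 over 144 arrangements), 0.02 (p = 0.924) and 0.10 (p = 0.486). With so few livers in each diet and set, this cannot show whether a relation is absent within the sets. Rnf125 had the strongest relation to animal number, at an r of -0.84 (exact permutation p = 0.0090, adjusted p = 0.0632) and a rho of -0.81 (p = 0.0135). Without animals 1 and 14 its r was -0.86. Centred on the sets as well, r was -0.17, but the sets are defined by animal number, so this centring takes out most of its variation. Usp2 and Dbp had an r of 0.93 (exact permutation p = 0.0060, adjusted p = 0.0632) and a rho of 0.76 (p = 0.0201), which did not pass. Their r was 0.76 without control animal 11, and 0.76 without control animal 11 and seasoned animal 4, the 2 livers farthest from the centred Dbp median (exact permutation p = 0.0885). Centred on diet and set, r was 0.93 and rho 0.56 (exact permutation p = 0.104, adjusted p = 0.389 for r). Both genes lay under the array medians in seasoned animals 1, 4 and 7. Dbp and the ligase genes had r between -0.41 and -0.36, with adjusted p between 0.334 and 0.404. Without control animal 11 r with Dbp was -0.81 for Rnf8, -0.72 for Rnf125 and -0.58 for Lnx2. Without seasoned animal 4 as well it was -0.94, -0.67 and -0.58 (exact permutation p between 0.128 and 0.137). Within the seasoned livers r was -0.84, -0.97 and -0.81, and within the controls, animal 11 among them, 0.09, 0.04 and -0.08 (not tested). Centred on diet and set, r was -0.10, -0.75 and -0.42, with adjusted p between 0.340 and 0.851.

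The other genes of these families are set beside the 4, which were chosen for their differences. The array measured 299 other genes with symbols of the Rnf, Trim, Marchf, Usp, Otu, Fbx, Cul, Asb, Klhl or Ube2 families, of which 57 were varying. Of these 57, 0 were higher and 2 were lower with the seasoned diet at an unadjusted p under 0.05 by limma, and 0 passed the adjustment. That is 3.51%, against 11.6% of all varying genes, of which 6.89% were higher and 4.71% lower. In 0 of the 57 did the diets not overlap, against 1.61% of all varying genes in the higher and 1.11% in the lower direction. These shares are so low that 0 of 57 says little. Their differences ran from -0.45 to 0.25 with a median of 0.00, against a median of 0.02 over the other varying genes. Over all 299 the unadjusted count was 17 (5.69%), near the 4.71% of all genes, and 15 of the 17 were near-constant.

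The 2 lower genes were Rnf39 and Marchf7. Rnf39, a RING-domain gene of the major histocompatibility region, was at 7.81 ± 0.20 in seasoned and 8.22 ± 0.25 in control livers (SD), a difference of -0.41 ± 0.14 (SE, adjusted p = 0.838 by limma). Marchf7, a ligase of the membrane-associated RING-CH family, differed by -0.20 ± 0.08 (adjusted p = 0.944 by limma). Rnf6, a RING ligase gene, had the lowest difference of the families, -0.45 ± 0.23, with 7.59 in control animal 5 and 6.30 in control animal 2. On the higher side Ube2l6, the E2 of the ubiquitin-like protein Isg15, differed by 0.25 ± 0.11 and Rnf5, a ligase of the endoplasmic reticulum, by 0.14 ± 0.08, neither passing. Among the 66 other Rnf genes 17 were varying, and their highest difference was 0.23, in Rnf144a. Among the 43 other Usp genes 8 were varying, between -0.09 and 0.16, with Usp33, a deubiquitinase, at -0.09 and Usp10 at 0.16.

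**Figure D4:**
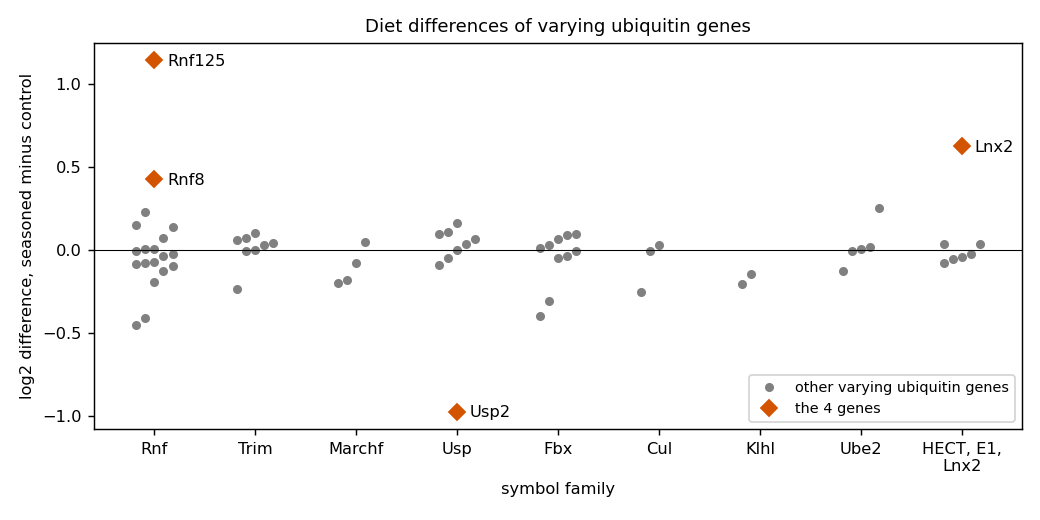
Log2 difference (seasoned minus control, vertical axis) of the varying ubiquitin genes, by symbol family along the horizontal axis; grey points are the other varying genes and orange diamonds the 4 genes. The grey points lie between -0.45 and 0.25, and the 4 genes, which were chosen for their differences, lie outside that range.

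Of the genes that work with Rnf8 at DNA breaks, 22 were measured and 5 were varying. At an unadjusted p under 0.05 by limma there were 0 of the 22, against 4.71% of all genes, and 0 of the 5, against 11.6% of the varying genes. Babam1, a subunit of the BRCA1-A complex that reads ubiquitin chains at breaks, was the nearest, at 8.02 ± 0.16 in seasoned and 7.83 ± 0.13 in control livers (0.19 ± 0.09 SE, unadjusted p = 0.0642). Nbn, a sensor of breaks, differed by 0.10 ± 0.15, Abraxas1, the scaffold of that complex, by 0.04 ± 0.12, Chfr, the ligase most like Rnf8 in its FHA and RING domains, by -0.02 ± 0.07, and Usp3, a histone deubiquitinase, by -0.05 ± 0.13.

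Around Rnf125, no gene of the RIG-I pathway passed the adjustment. Of 19 measured members 7 were varying, and 6 of the 7 had differences above 0, against 57.3% of the other varying genes. Their median was 0.11, against 0.02 over the other varying genes. Irf7, an interferon regulatory factor, differed by 0.29 ± 0.21, Isg15 by 0.17 ± 0.21 and Usp18, which removes Isg15, by 0.11 ± 0.25. All 3 had positive differences within animals 1 to 7 (0.67, 0.61 and 0.42) and negative ones within animals 8 to 14 (-0.12, -0.27 and -0.15). Trim25, another RIG-I ligase, differed by 0.04 ± 0.10 and Irf3 by 0.03 ± 0.10. Rnf138, a ligase of the same small RING family as Rnf125, differed by -0.12 ± 0.11. At an unadjusted p under 0.05 there was 1 of the 19 (5.26%, against 4.71% of all genes), namely Ube2d2, a near-constant E2 gene at 8.91 in both diets.

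Of 29 measured members of the Numb and Notch list around Lnx2, 4 (13.8%) had an unadjusted p under 0.05, against 4.71% of all genes, and of its 7 varying members 2 did, against 11.6% of the varying genes. The other members counted, Dtx4 and Notch2, were near-constant, at 6.56 and 6.23 in both diets, and Notch2 is named because its p was seen. The median difference of the varying members was -0.01. Dll1, a Notch ligand, had signals of 7.02, 6.83, 7.05, 6.85 and 6.61 in seasoned animals 1, 4, 7, 10 and 13, against 6.31, 6.52, 6.14, 6.41 and 6.49 in control animals 2, 5, 8, 11 and 14. The groups did not overlap, and the difference was 0.50 ± 0.10 (SE, unadjusted p = 0.00099, adjusted p = 0.458 by limma), with the control mean of 6.37 under the array medians. Numb had signals of 8.78, 8.44, 8.46, 8.55 and 8.74 in the seasoned animals, against 8.84, 8.76, 8.95, 8.92 and 9.18 in the controls. Its groups overlapped only through seasoned animal 1 and control animal 5, and the difference was -0.34 ± 0.10 (SE, unadjusted p = 0.0080, adjusted p = 0.742 by limma). Rbpj, the DNA-binding partner of Notch, differed by -0.24 ± 0.11, Pdzrn3, a relative of Lnx2, by -0.28 ± 0.26 and Hes1, a Notch target, by 0.07 ± 0.27. No gene of the list passed the adjustment.

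In the list of Usp2 partners and targets, 5 of 23 measured members (21.7%) had an unadjusted p under 0.05, against 4.71% of all genes, and 0 passed the adjustment. Of its 15 varying members 4 (26.7%) did, against 11.6% of the varying genes, 2 higher and 2 lower. The fifth, Ccna1, a cyclin gene named because its p was seen, was near-constant at 6.31 in both diets. Of the varying ones, Bmal1 (1.14 ± 0.21), Cry1, a clock repressor (0.44 ± 0.17), and Nr1d1, which encodes REV-ERB alpha (-0.96 ± 0.30), are genes of the clock itself. Cebpa, a hepatocyte transcription factor, had signals of 9.70, 9.31, 9.46, 9.61 and 9.72 in seasoned animals 1, 4, 7, 10 and 13, against 9.93, 10.12, 9.85, 9.92 and 10.21 in control animals 2, 5, 8, 11 and 14. Its groups did not overlap, with a difference of -0.45 ± 0.10 (SE, unadjusted p = 0.0019, adjusted p = 0.526 by limma). The described protein targets Mdm2 (-0.01 ± 0.12), Mdm4 (-0.04 ± 0.08) and Fasn (0.27 ± 0.50) had differences within about 1 SE or less of 0, and Ccnd1, which encodes cyclin D1, had one of -0.43 ± 0.21. Hsd11b1, which reactivates glucocorticoids in liver, differed by 0.11 ± 0.06.

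**Figure D5:**
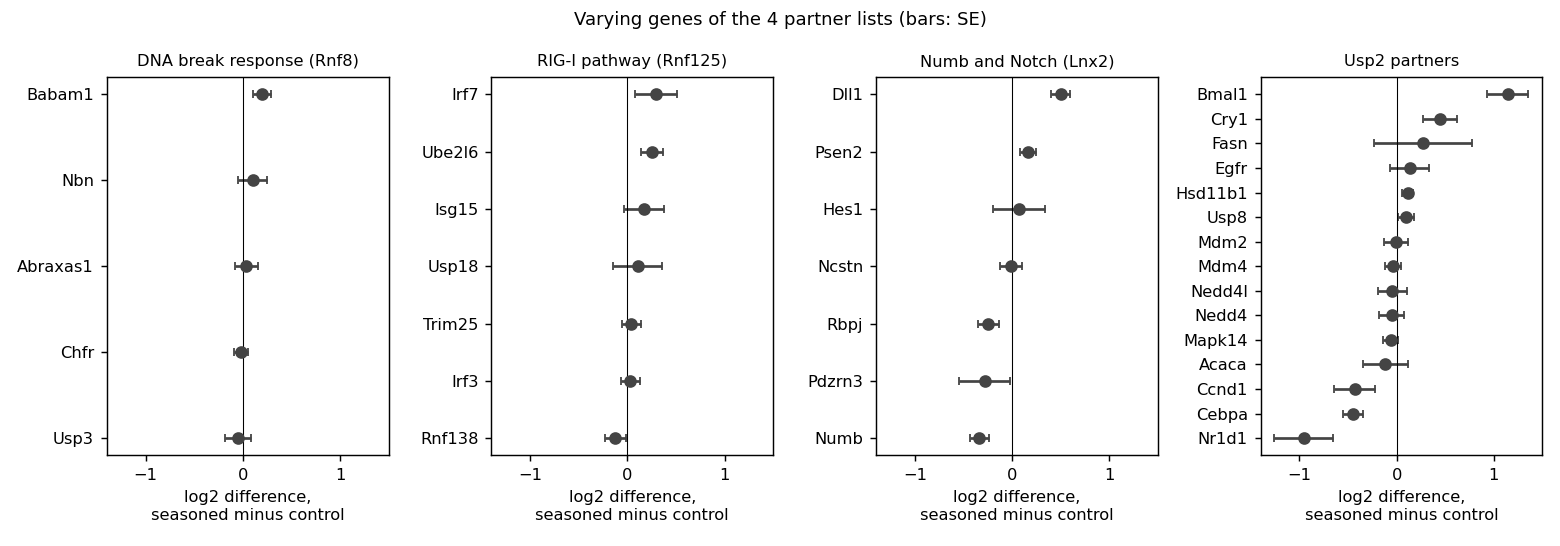
Log2 difference (seasoned minus control, horizontal axis) of the varying genes in the 4 lists of genes that work with Rnf8, Rnf125, Lnx2 and Usp2; points are differences and bars their SE. The DNA break genes lie between -0.05 and 0.19, Dll1 and Numb lie at opposite sides, and the clock genes Bmal1 and Nr1d1 lie farthest out.

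The other lists of the ubiquitin system had between 0 and 6.25% of their measured members at an unadjusted p under 0.05, against 4.71% of all genes. Ligases and kinases that turn over clock proteins had 0 of 20 measured members at an unadjusted p under 0.05, with Mycbp2, a very large ligase, at 0.16 ± 0.11. HECT ligases had 0 of 22, with the 5 varying members between -0.08 and 0.03. Ubiquitin, E1 and E2 genes had 2 of 32, namely Ube2d2 and Ube2b, both near-constant. Ligases and cofactors of sterol enzyme turnover had 1 of 24, namely Ubxn4, an endoplasmic reticulum adaptor of the Vcp segregase, at 0.19 ± 0.06, while Marchf6, a ligase that marks squalene epoxidase, differed by -0.18 ± 0.10.

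The varying genes most like each of the 4 within the diets were named by Pearson's r of diet-centred values over the 10 livers, as a description among 2612 genes. For Usp2 they were Shld2 (0.96), Dbp (0.93) and Pde4dip (0.93), and the most opposite were Npas2 (-0.93), a clock activator, and Slc6a6 (-0.91), the taurine transporter. For Rnf8 they were RT1-Da (0.96), Hspd1 (0.95), a mitochondrial chaperonin, and Ociad2 (0.93), with Slc16a12 (-0.92) and Znrf3 (-0.89), a ligase that removes Wnt receptors, most opposite. For Rnf125 they were Dcaf11 (0.95), a substrate receptor of Cul4 ligases, Hspa9 (0.94), a mitochondrial chaperone, and Tmsb4x (0.94), with Hif1a (-0.91) and Sec24d (-0.90) most opposite. For Lnx2 they were Rpsa (0.98), a ribosomal protein, Ppdpf (0.96) and Coro1c (0.95), with Hapstr1 (-0.90) and Clec14a (-0.86) most opposite. An r at or above 0.8 was shared with 205 genes by Rnf125, 91 by Lnx2, 62 by Usp2 and 48 by Rnf8.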

How the data were processed

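Per the labels' protocols, total RNA (100 ng) of each of 10 rat livers was turned into biotin-labelled cRNA for 1 array. The deposited table holds log2 signals per probe set, and neither its header nor the labels state the method behind them. That the logarithm has base 2 was judged from the values. Detection calls were not used, and precision is set by the number of arrays. The table has 31099 probe sets. Left out were 57 controls, 436 probe sets with several genes and 9780 that the platform's table does not name. The other 20826 had 1 gene, and gene identifiers paired 20758 of them with current symbols in the GRCr8 table. The probe set with the highest mean stood for each of 14217 genes. Diets were compared with limma 3.58.1 in R 4.3.3 (lmFit and eBayes, two-sided, no covariate), with Benjamini-Hochberg adjustment over all genes at a threshold of 0.05. The fit and the permutation test were tested on simulated data. No filter was applied. Alternatives were the mean or the most variable probe set of a gene, quantile normalization once more, median centring, a filter on dim probe sets, varying genes alone, other variance models, the animal set or array position as a term, and leaving out each liver. Named genes were the 4 genes, the 3 members of each list with the smallest p, all varying members of the 4 partner lists, in each direction the 5 family genes of smallest p, the genes most like or opposite each of the 4, and Dbp. The genes and lists were chosen with earlier results of these data known. The titles number the animals separately, so p-values measure the spread between rats.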

Additional observations from a re-analysis of the deposited data

Results flagged for a closer look

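Of 10 groups of 5 livers (5 probe sets in each diet), 3 had a highest or lowest liver set off from the rest by a large share of the group's range, where chance flags about 1 in 20 groups. Control animal 2 was high for Rnf8, with a ratio of gap to range of 0.7106. Seasoned animal 10 was low for Lnx2 (0.7288). Control animal 11 was low for the brighter Usp2 probe set (0.7765), and without it the Usp2 difference was -1.26. Each concerned 1 gene, and no liver stood apart for more than 1 of the 4.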

How the results depend on the processing

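Feeding was paired, but the titles do not state which animals of the diets were matched, so no paired analysis was run. The diet differences kept their direction in all 18 alternatives for each of the 4 genes. As this contrast chose the genes, that is description and no test. For Rnf8 and Lnx2, whose diets did not overlap, leaving out a liver or splitting the animals could not reverse it. Leaving out each liver in turn gave 0.38 to 0.46 for Rnf8, 0.99 to 1.33 for Rnf125, 0.55 to 0.70 for Lnx2 and -1.26 to -0.86 for Usp2. The values that moved by more than the SD within diets were those within animals 8 to 14 for Rnf8 (0.31) and Usp2 (-0.45), and within animals 1 to 7 for Usp2 (-1.53). These splits were chosen after seeing the data, and the cause was not tested. The count of 0 genes over all genes became 94 with median centring over varying probe sets, 2 with array position as a covariate and 4 with varying genes alone, where fewer genes are tested, and ranged from 0 to 5 over the livers left out, with 5 without control animal 11. The count of 17 ubiquitin genes at an unadjusted p under 0.05 was 4 after repeated quantile normalization, 10 after median centring and 3 among varying genes fitted alone, and ranged from 9 (without seasoned animal 7) to 22 (without control animal 11), with 11 without seasoned animals 1 or 13. The count over all genes moved as well, from 669 to 339 after quantile normalization and 575 after median centring. It was 316 among the 2613 varying genes fitted alone, 492 without seasoned animal 7 and 847 without control animal 11. Among varying genes fitted alone the count of 4 ranged from 0 to 52 over the livers left out. The r with Usp2 ranged from -0.68 to -0.11 for Rnf8, from -0.50 to 0.017 for Rnf125 and from -0.30 to 0.040 for Lnx2 over the livers left out, the values above 0 being those without seasoned animal 13 and without control animal 8. Median centring gave -0.70 for Rnf8, -0.36 for Rnf125 and -0.42 for Lnx2. No alternative brought one of these relations past the adjusted threshold.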
